A study of Mus musculus with 6 samples.

Results

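Metabotropic glutamate receptors are G protein-coupled receptors that sense glutamate at and around synapses. The genes described are the 6 members Grm2, Grm3, Grm4, Grm5, Grm7 and Grm8, found by gene symbol among the 49315 genes counted in each library, and all 6 had enough reads to be among the 17185 genes tested. The receptors fall into classes by sequence and coupling: mGluR5 of group I acts through Gq and phospholipase C on the postsynaptic side, mGluR2 and mGluR3 of group II and mGluR4, mGluR7 and mGluR8 of group III act through Gi/o, mostly to reduce transmitter release. In the mature cortex Grm3 is expressed by astrocytes as well as neurons, while Grm2 is mainly neuronal.

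RNA came from the cerebral cortex of mice labelled wild type, with 3 libraries in each of 2 groups. The shFabp7 mice carried AAV-PHP.eB-Gfap-GFP-shFABP7, a vector whose Gfap promoter directs an shRNA against Fabp7, the brain fatty acid-binding protein gene, to astrocytes, and the shScr mice carried the scrambled counterpart AAV-PHP.eB-Gfap-GFP-shScr. The vector was injected at 21 days of age. Mice of both groups received LPS, a bacterial endotoxin, at 1 mg/kg in 3 weekly injections starting at 4 months, and were harvested 24 h after the last one, so LPS was common to all 6 libraries. Whether each library came from its own animal is not in the labels, so p-values reflect the spread between these libraries, part of which may be technical.

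Total counts ranged from 16914012 to 18991235 per library. Fabp7 stood at 5.56, 2.49 and 3.52 CPM (counts relative to a TMM-scaled library size) in the shFabp7 libraries and at 26.3, 15.2 and 15.8 CPM in the shScr libraries, with no overlap; its adjusted p was 0.0704 in edgeR's quasi-likelihood test and 5.23e-13 in DESeq2. Libraries also differed in ways the labels do not give. The mean log2 CPM of 12 cortical excitatory neuron markers was 7.65, 7.76 and 7.55 in the shFabp7 libraries and 6.52, 7.51 and 7.28 in the shScr libraries, so shScr library 1 was low in these defining markers of the labelled tissue. The thalamic and hypothalamic list averaged 2.71, 2.42 and 2.49 in shFabp7 and 4.36, 3.39 and 2.45 in shScr. Reads of Xist and of Y-linked genes split the libraries into 1 mainly Y-linked and 2 mainly Xist in shFabp7, against 2 and 1 in shScr, and shFabp7 library 2 held 223 Y-linked reads beside 12643 of Xist.

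None of the 6 receptor genes differed between the groups at an adjusted p under 0.05, the threshold used here over all genes tested. The same test called 20 genes in all (0.116% of those tested; 0.0582% higher and 0.0582% lower), and DESeq2 called 0 of the 6, where it called 4.49% of all genes. At an unadjusted p under 0.05 edgeR had 1 member, Grm3, against 16.8% of all genes tested. The groups did not overlap for 2 members, Grm2 and Grm3, both higher in shFabp7, where 11.4% of all genes were higher without overlap and 22.9% did not overlap in either direction. Over the 6 members, 4 log2 fold changes lay above 0 and 2 below, and 48.5% of all genes tested lay above 0.

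**Figure D1:**
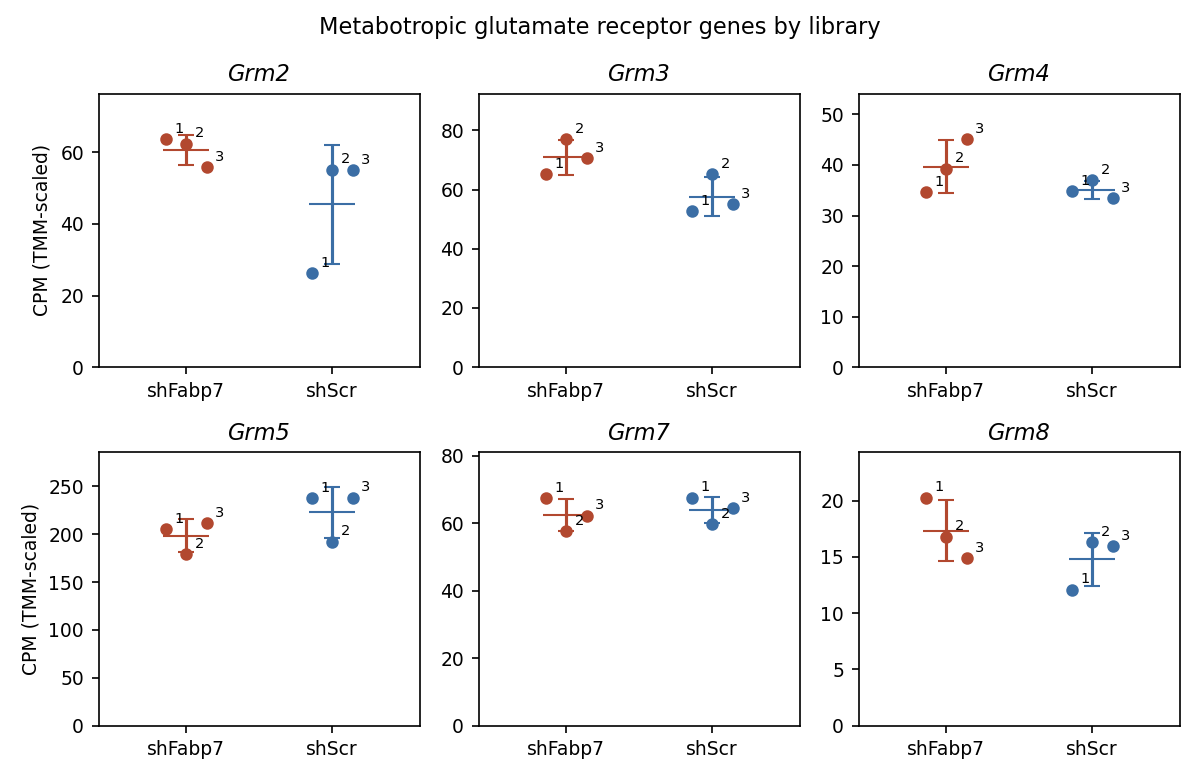
CPM of each receptor gene in 3 shFabp7 libraries (left in each panel) and 3 shScr libraries (right). Points are libraries, numbered by replicate, and bars are the mean with the SD; the groups do not overlap for Grm2 and Grm3, and shScr library 1 lies far below the other shScr libraries for Grm2.

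Group II held both genes whose groups did not overlap, and for that reason their promoters are shown, from the RefSeq table of GRCm38.p6, from 250 bases before to 50 bases after the annotated start, with GC boxes in capitals. The Grm2 window is chr9:106656060-106656359 on the minus strand and the Grm3 window is chr5:9725303-9725602 on the minus strand.
Grm2: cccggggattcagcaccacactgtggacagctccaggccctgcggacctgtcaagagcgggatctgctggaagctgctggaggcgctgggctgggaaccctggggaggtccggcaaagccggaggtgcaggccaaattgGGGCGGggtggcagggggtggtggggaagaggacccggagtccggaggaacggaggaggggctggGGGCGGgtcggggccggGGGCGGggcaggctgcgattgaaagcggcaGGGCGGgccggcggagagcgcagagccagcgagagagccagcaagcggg
Grm3: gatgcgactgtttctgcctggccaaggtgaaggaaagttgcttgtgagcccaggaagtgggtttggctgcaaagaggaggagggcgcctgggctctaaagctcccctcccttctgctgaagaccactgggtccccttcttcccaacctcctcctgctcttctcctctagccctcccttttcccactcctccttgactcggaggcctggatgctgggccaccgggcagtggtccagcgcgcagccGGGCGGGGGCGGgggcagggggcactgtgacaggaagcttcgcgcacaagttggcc
The Grm2 window held 4 GC boxes (GGGCGG, searched on both strands) and the Grm3 window 2, which lie side by side, while 35.7% of the 32851 promoters of the table held at least 1. Bases were G or C in 72.0% of the Grm2 window and 63.7% of the Grm3 window, against a median of 52.7% over all promoters. They held 22 and 11 CpG dinucleotides, against a median of 7. Neither window held an AP-1 site (TGANTCA, in 7.81% of all promoters), a CRE half-site (TGACG, in 20.8%), a TATA box (TATAAA, in 13.6%) or a glucocorticoid half-site (TGTTCT, in 19.0%), each searched on both strands, and no matches of different motifs overlapped in them. Of the 6 members, 4 were in the promoter table, and these traits were not particular to Grm2 and Grm3. Both Grm7 windows held 1 GC box, with 61.0% and 66.7% G or C and 10 and 15 CpG dinucleotides. One Grm8 window held 1 GC box, 67.0% G or C and 33 CpG dinucleotides. The other Grm8 windows held 0 GC boxes, with 43.3% and 54.0% G or C.

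Grm3, the receptor gene of the family that astrocytes use most in the adult brain, spans 9485541 to 9725170 of chromosome 5, minus strand (ENSMUSG00000003974). It had 1092, 1267 and 1323 reads in the shFabp7 libraries and 967, 1225 and 1010 reads in the shScr libraries. Scaled, these were 65.3, 77.05 and 70.6 CPM in shFabp7 and 52.6, 65.2 and 55.1 CPM in shScr. The lowest shFabp7 library and the highest shScr library lay next to each other, 0.11 CPM apart, so the absence of overlap rested on a narrow gap. Means were 71.0 ± 5.90 CPM in shFabp7 and 57.6 ± 6.64 CPM in shScr (SD, n = 3 each). The log2 fold change was 0.30 (SE 0.09), a ratio of 1.23 (95% interval 1.07 to 1.42), and its adjusted p in edgeR was 0.173. In DESeq2 the adjusted p was 0.121. An exact permutation test, two-sided, returned p = 0.1, the smallest value possible with 3 libraries against 3.

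The Grm3 value depended on the libraries set against each other. Without shScr library 2 edgeR called 900 of 17522 genes tested, against 20 of 17185 with all 6 libraries. In that setting the Grm3 log2 fold change was 0.40 and passed, with an adjusted p of 0.0269 in edgeR. Without shScr libraries 1 and 3 together it was 0.12 (adjusted p of 0.734 in edgeR, with 1 shScr library assumed to vary like the shFabp7 ones), and it was also 0.12 with a regional score as a term of the model (adjusted p of 0.827 in edgeR). That score is the mean log2 CPM of hippocampal, striatal, thalamic and hypothalamic, and choroid plexus and ependymal markers less that of the excitatory neuron markers. Each list has equal weight in it. It includes listed genes too low to be tested, which the list means and the counts above 0 leave out. The score was -5.35, -5.94 and -5.08 in shFabp7 and -3.12, -5.13 and -4.42 in shScr. Of its lists, thalamic and hypothalamic markers had 3 of 10 tested members above 0, with summed levels of 154 to 179 CPM in shFabp7 and 158 to 299 CPM in shScr. Hippocampal markers had 1 of 11 above 0, with 283 to 319 CPM in shFabp7 and 319 to 513 CPM in shScr, and choroid plexus and ependymal markers had 0 of 6 above 0, with 11.5 to 18.5 CPM in shFabp7 and 17.3 to 38.2 CPM in shScr. Over all genes tested 48.5% of log2 fold changes lay above 0. None of these markers was at 0 in all libraries. Among libraries with mainly Xist reads Grm3 differed by 0.42 on the log2 scale (2 shFabp7 against 1 shScr), and among those with mainly Y-linked reads by 0.16 (1 shFabp7 against 2 shScr); neither was tested by itself.

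Astrocyte markers gave no single direction beside Grm3. Of 15 listed and tested, 10 had log2 fold changes above 0 and 5 below, with a median of 0.09. Over all genes tested 48.5% lay above 0 and the median was -0.0065. Of the 15 markers, 0 passed in edgeR or in DESeq2. At an unadjusted p under 0.05 in edgeR, 5 were higher and 3 lower, where 8.44% of all genes were higher and 8.32% lower. Their summed level ranged from 5870 to 6491 CPM in shFabp7 and from 5673 to 6061 CPM in shScr, and none was at 0 in all libraries. Slc1a2, the main glutamate transporter gene of astrocytes, and Aldoc, a glycolytic enzyme gene of astrocytes, had log2 fold changes of 0.18 and 0.09. Slc1a2 had 0.007 with the regional score as a term, 0.10 without shScr library 1 and 0.029 without shScr libraries 1 and 3. In bulk tissue, fewer cells of a type and less RNA per cell cannot be told apart, and the part of astrocyte content in the Grm3 value was not tested.

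Grm2, a presynaptic autoreceptor gene of glutamatergic neurons, spans 106643095 to 106656082 of chromosome 9, minus strand (ENSMUSG00000023192). It stood at 63.7, 62.4 and 55.8 CPM in the shFabp7 libraries and at 26.3, 55.1 and 55.01 CPM in the shScr libraries. Only shScr library 1 was far from the others; the other shScr libraries lay just under the lowest shFabp7 library. Means were 60.6 ± 4.20 CPM in shFabp7 and 45.5 ± 16.6 CPM in shScr (SD, n = 3 each), which gave a log2 fold change of 0.41 (SE 0.30; ratio 1.33, 95% interval 0.775 to 2.29) and an adjusted p of 0.555 in edgeR. An exact permutation test, two-sided, again returned p = 0.1. Without shScr library 1 the log2 fold change was 0.14, and with the regional score as a term it was -0.12, so the direction turned.

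The same shScr library 1 was the lowest in excitatory neuron markers. All 12 of these had log2 fold changes above 0, with a median of 0.44, where 48.5% of all genes tested lay above 0. At an unadjusted p under 0.05 in edgeR 3 were higher, against 8.44% of all genes, and 0 passed the threshold. DESeq2 called 3 of these markers higher, where 2.49% of all genes were higher. Their summed level ranged from 7521 to 8735 CPM in shFabp7 and from 4755 to 6767 CPM in shScr, and none was at 0. Camk2a, a kinase gene of excitatory synapses, and Slc17a7, the vesicular glutamate transporter gene of cortical neurons, had log2 fold changes of 0.37 and 0.24. With the regional score as a term Camk2a had 0.15 and Slc17a7 turned to -0.034. Both genes belong to the marker list that is subtracted in this score. Part of their shift is therefore built in, and these values are no independent check. An antisense gene, Gm28111, shares 470 bases of exon with Grm2 and had 6 reads over the 6 libraries.

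**Figure D2:**
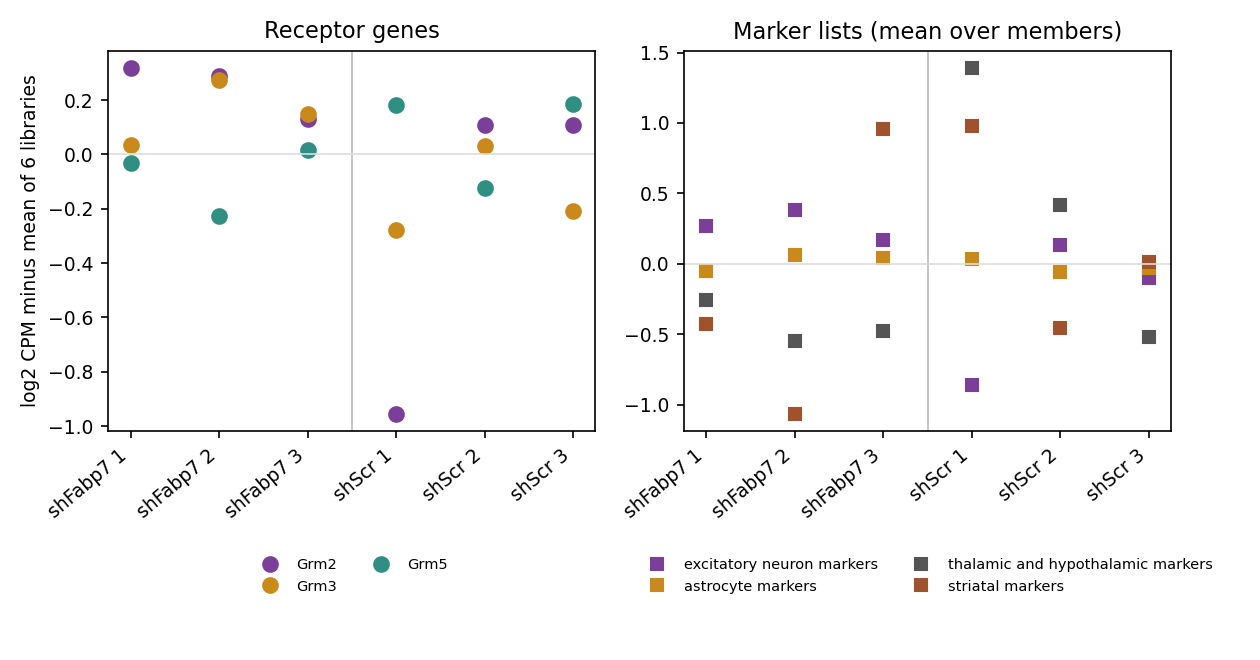
Log2 CPM of Grm2, Grm3 and Grm5 (left) and mean log2 CPM of 4 marker lists (right) in each library, each minus its own mean over the 6 libraries. In shScr library 1 Grm2 and the excitatory neuron markers are both at their lowest, and the thalamic and hypothalamic markers at their highest.

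Group I was represented by Grm5, which encodes a postsynaptic receptor bound by Homer scaffolds. The gene spans 87584168 to 88134907 of chromosome 7, plus strand (ENSMUSG00000049583), and it had the most reads of the family, from 2943 to 4373 per library. The libraries held 205, 179 and 212 CPM in shFabp7 and 238, 192 and 238 CPM in shScr. The groups overlapped, since shScr library 2 lay below shFabp7 libraries 1 and 3. The log2 fold change was -0.17 (SE 0.10; ratio 0.891, 95% interval 0.765 to 1.04) and an adjusted p of 0.426 in edgeR. Its direction turned with the regional score as a term (0.03) and without shScr libraries 1 and 3 (0.045), and it was -0.26 without shScr library 2. Grm5 and Grm3 lay on opposite sides of 0, and the difference between their changes was not tested.

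Group III held 3 presynaptic receptor genes, and all had overlapping groups. Grm4, which is known for its expression in cerebellar granule cells, spans 27422387 to 27513341 of chromosome 17, minus strand (ENSMUSG00000063239), in the files, while GENCODE M21 has the same start and a span of 99017 bases. It stood at 34.6, 39.3 and 45.1 CPM in shFabp7 and at 34.9, 37.0 and 33.5 CPM in shScr, a log2 fold change of 0.18 (SE 0.10) and an adjusted p of 0.406 in edgeR. The highest value belonged to shFabp7 library 3, and without it the log2 fold change was 0.073. It was 0.27 without shFabp7 library 1 and 0.10 without shScr libraries 1 and 3. Striatal markers averaged 4.95, 4.31 and 6.33 log2 CPM in shFabp7 and 6.35, 4.92 and 5.39 in shScr, so shFabp7 library 3 was also high in these, as was shScr library 1. Of 11 striatal markers 4 were above 0, their summed level ranged from 524 to 1698 CPM in shFabp7 and from 597 to 1434 CPM in shScr, and their part in the Grm4 value was not tested. Of 7 cerebellar granule cell markers tested, 1 was above 0, and 48.5% of all genes tested were. The list's summed level was 100.3 to 119 CPM in shFabp7 and 142 to 151 CPM in shScr. Etv1 had the highest level of the list, with means of 49.4 CPM in shFabp7 and 60.0 CPM in shScr. Gabra6 and Barhl1, named after their values were seen, had at most 2 reads in any library and were not tested. The sum therefore does not measure granule cell content, and its part in the Grm4 value was not tested.

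Grm7, which encodes a receptor of the presynaptic active zone with low affinity for glutamate, was the member with the log2 fold change nearest to 0. It spans 110645581 to 111567230 of chromosome 6, plus strand (ENSMUSG00000056755). It had 67.3, 57.7 and 62.2 CPM in shFabp7 and 67.5, 59.7 and 64.3 CPM in shScr. The log2 fold change was -0.03 (SE 0.08), and the 95% interval of the ratio ran from 0.869 to 1.10, so a 1.5-fold difference in either direction lay outside it. The direction turned in 4 of 17 alternatives, and the adjusted p was 0.865 in edgeR. An antisense gene, Gm20387, shares 130 bases of exon with Grm7 and had 251 reads over the 6 libraries.

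Grm8, another presynaptic receptor gene, was the member with the fewest reads, from 222 to 339 per library. It spans 27275119 to 28135178 of chromosome 6, minus strand (ENSMUSG00000024211). It had 20.3, 16.8 and 14.9 CPM in shFabp7 and 12.1, 16.3 and 15.9 CPM in shScr. One library of each group stood apart, shFabp7 library 1 above and shScr library 1 below the rest, and the other 4 lay between 14.9 and 16.8 CPM. The log2 fold change was 0.23 (SE 0.15) and an adjusted p of 0.471 in edgeR, and it was -0.011 with the regional score as a term. It was 0.10 without shScr library 1 and also 0.10 without shFabp7 library 1. Counting error alone gives a coefficient of variation of 5.92% at its mean count, and the libraries had 15.7% within shFabp7 and 15.8% within shScr.

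**Figure D3:**
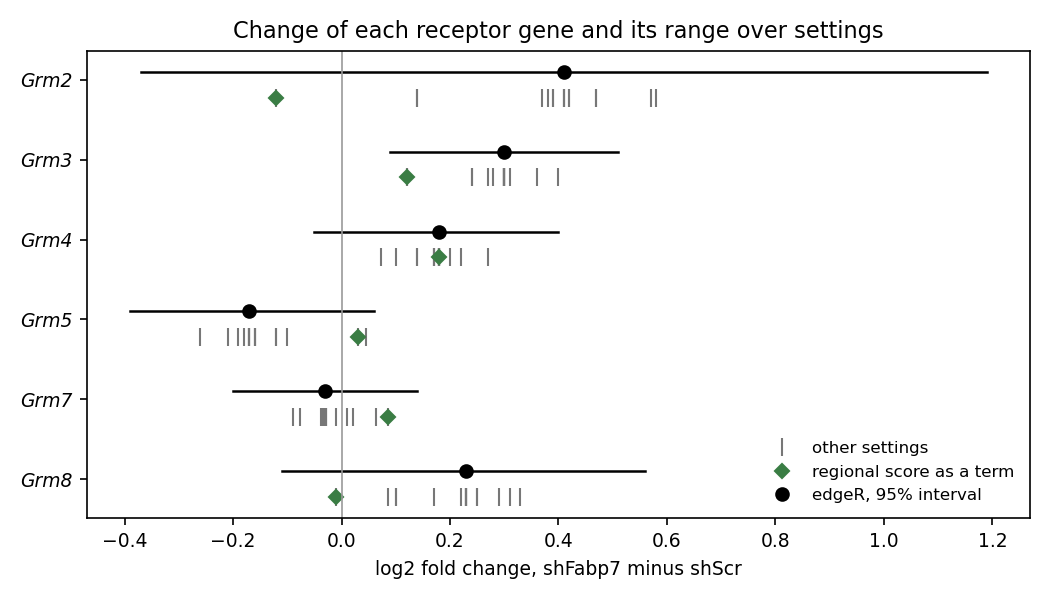
Log2 fold change of each receptor gene, shFabp7 minus shScr, with its 95% interval in edgeR (black), under the other settings (grey ticks) and with the regional score as a term (green). The interval lies above 0 for Grm3 alone, and the green marks lie on the other side of 0 for Grm2, Grm5, Grm7 and Grm8.

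Levels of different genes were compared as CPM per kb of the exon length given in the files. This length was 3049 bases for Grm3, with 1 annotated transcript, and 10247 bases for Grm5, with 7. The order of different genes therefore depends on their annotation. Undivided, Grm5 averaged 199 CPM in shFabp7 and 223 CPM in shScr, and Grm3 71.0 and 57.6 CPM. Grm3 averaged 23.3 ± 1.93 CPM per kb in shFabp7 and 18.9 ± 2.18 CPM per kb in shScr (SD, n = 3 each), and Grm5 averaged 19.4 ± 1.69 and 21.7 ± 2.58 CPM per kb in the same groups. In shFabp7 the Grm3 level, 21.4 to 25.3 CPM per kb, lay above the Grm5 level of 17.5 to 20.7, while in shScr the ranges, 17.3 to 21.4 and 18.8 to 23.2, overlapped. The ratio of Grm3 to Grm5 was 1.07, 1.45 and 1.12 in the shFabp7 libraries and 0.743, 1.14 and 0.778 in the shScr libraries, with shScr library 2 inside the span of the shFabp7 libraries.

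Below this pair came Grm2, with 12.4 ± 0.858 CPM per kb in shFabp7 and 9.29 ± 3.39 in shScr, and Grm7, with 10.6 ± 0.815 in shFabp7 and 10.9 ± 0.666 in shScr. In shFabp7 Grm2 was higher than Grm7 in each of the 3 libraries, with ranges of 11.4 to 13 and 9.81 to 11.4 CPM per kb that met at their ends, while in shScr the ranges, 5.38 to 11.3 and 10.1 to 11.5, overlapped. Grm4 followed with 7.46 ± 0.994 CPM per kb in shFabp7 and 6.60 ± 0.332 in shScr, and Grm8 was lowest with 1.75 ± 0.275 in shFabp7 and 1.49 ± 0.235 in shScr. Over all genes tested the mean level of Grm3 was at the 85.3 percentile and that of Grm8 at the 28 percentile. Without division by length Grm5 made up 44.1% of the family's CPM in shFabp7 and 50.6% in shScr. Per kb its shares were 25.9% and 31.7%, and those of Grm3 were 31.1% and 27.4%.

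**Figure D4:**
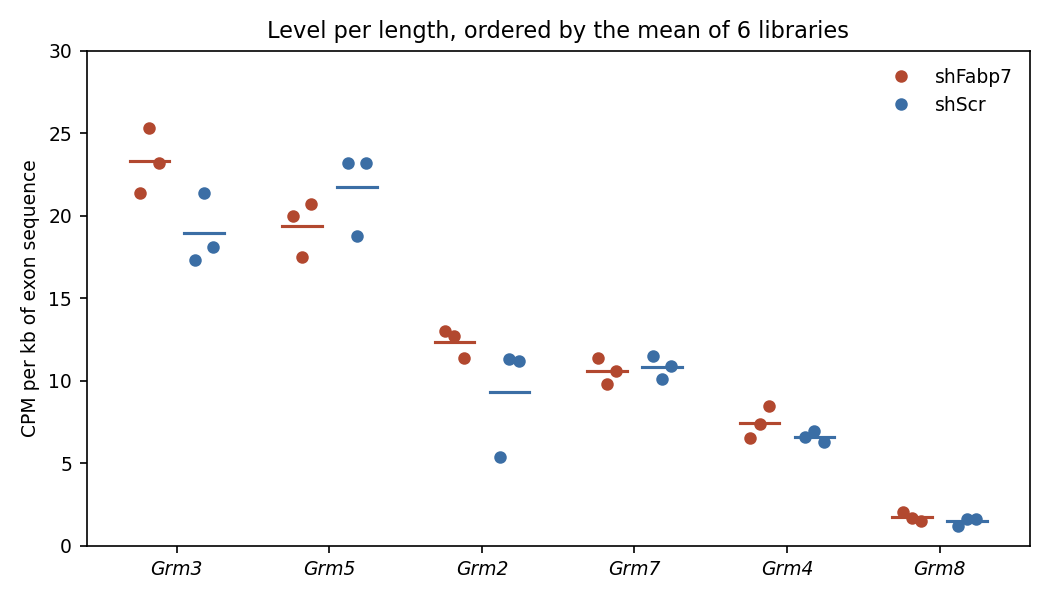
Level of each receptor gene in CPM per kb of exon sequence, ordered by the mean over the 6 libraries, with shFabp7 libraries left of shScr libraries and lines at the group means. Grm3 and Grm5 lie between 17.3 and 25.3 CPM per kb in every library, and Grm8 lies between 1.22 and 2.05.

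Summed by class per kb, group II had 34.4, 38.0 and 34.6 CPM per kb in the shFabp7 libraries and 22.6, 32.6 and 29.3 in the shScr libraries. Group III had 20.0, 18.9 and 20.6 CPM per kb in shFabp7 and 19.3, 18.7 and 18.8 in shScr. The ratio of group II to group I was 1.72, 2.18 and 1.67 in shFabp7 and 0.975, 1.74 and 1.26 in shScr. Its groups overlapped, and these sums are given as a description without a test.

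By the root mean square difference of mean-centred log2 CPM over the 6 libraries, the genes most like Grm2 were Rtn4r (0.062) and Galnt9 (0.073), where the median over 13416 genes considered was 0.45. Those nearest to Grm3 were Trp53inp2 (0.024) and Nav2 (0.026), against a median of 0.23. Grm4 had Dgki (0.032) and Gpr158 (0.036) nearest, and Grm5 had Fbll1 (0.025) and Urb2 (0.027), each against 0.20. Nucb1 (0.011) and Seh1l (0.017) were nearest to Grm7, where the median was 0.15, and Eef1akmt1 (0.022) and Tmem198 (0.042) to Grm8, where it was 0.25. These genes were picked as the smallest distances, so they lie below the median by selection. The SD of the member's own log2 CPM was 0.48 for Grm2 and 0.092 for Grm7, so distances of different members are not comparable.

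Genes that act with the receptors were read from 7 lists of scaffolds, G proteins and their effectors, regulators, partners and glutamate supply. The lists were chosen with earlier results of these data known. Of the 84 tested list members, 1 passed the threshold in edgeR, where 0.116% of all genes tested did. Adcy8, a calcium-stimulated adenylyl cyclase gene, fell in shFabp7, with 20.8, 19.6 and 17.0 CPM in shFabp7 and 32.1, 30.4 and 29.6 CPM in shScr. The groups did not overlap, with a log2 fold change of -0.68 (SE 0.10) and an adjusted p of 0.0411 in edgeR. The call was lost without shScr library 3 (adjusted p of 0.0741 in edgeR) or without shFabp7 library 1 (0.072), 2 (0.31) or 3 (0.17), where the log2 fold change ranged from -0.75 to -0.60. It was also lost with the regional score (0.106) or sex (0.102) as a term. Few genes of any kind were called in these settings. The totals were 20 without shScr library 3, 10 without shFabp7 library 1 and 0 without shFabp7 library 2 or 3. With the regional score 9 genes were called, and with sex 7.

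The Gi/o list, the route of group II and III receptors, had 14 of 19 members above 0, with a median of 0.12. Over all genes tested 48.5% lay above 0. At an unadjusted p under 0.05 in edgeR 5 were higher and 2 lower, against 8.44% and 8.32% of all genes. DESeq2 called 4 higher, with Adcy8 the 1 lower, where 2.49% of all genes were higher and 2% lower. In the Gq, phospholipase C and calcium release list, the route of mGluR5, 14 of 16 members lay above 0, with a median of 0.20. At an unadjusted p under 0.05 in edgeR 8 were higher and 0 lower, and 0 passed after adjustment. DESeq2 called 5 higher, where 2.49% of all genes were higher. Itpr1, the main neuronal receptor gene for inositol trisphosphate, stood at 969, 1019 and 1052 CPM in shFabp7 and at 571, 792 and 619 CPM in shScr. These groups did not overlap, and the log2 fold change was 0.62 with an adjusted p of 0.0708 in edgeR. Dgkz, a diacylglycerol kinase gene, had 0.53 with an adjusted p of 0.084 in edgeR. With the regional score as a term Itpr1 had 0.41 and Dgkz 0.28, and without shScr libraries 1 and 3 they had 0.35 and 0.32. Both passed without shScr library 1 (adjusted p of 0.0436 in edgeR for each), where 182 genes were called in all. Both also passed without shScr library 2 (adjusted p in edgeR of 0.00171 for Itpr1 and 0.00761 for Dgkz), where 900 genes were called. The excitatory neuron markers were, like both genes, lowest in shScr library 1. Within shFabp7, library 3 had the lowest marker mean (7.55 log2 CPM) and the lowest Dgkz level, but the highest Itpr1 level. The part of these markers in either gene was not tested.

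Homer and scaffold genes had 9 of 12 tested members above 0, a median of 0.09 and 0 past the threshold in edgeR. DESeq2 called 2 higher. Over all genes 48.5% lay above 0, and DESeq2 called 2.49% higher. Shank1, a postsynaptic scaffold gene, had a log2 fold change of 0.38 and Ncdn, which encodes the mGluR5-binding protein norbin, -0.09, the second turning to 0.05 without shScr libraries 1 and 3. Shank1 had 0.17 without those libraries and 0.11 with the regional score as a term. Homer1 and Homer2, named after their values were seen, had 0.07 and 0.08. Genes of receptor desensitization had 8 of 12 above 0 and a median of 0.06, with 0 past the threshold in edgeR. Against the same 2.49% DESeq2 called 2 higher, Rgs4, a regulator of G protein signalling, at 0.58 and Arrb1, an arrestin gene, at 0.27. Rgs4 had 0.24 with the regional score as a term and 0.21 without shScr libraries 1 and 3. Without shScr library 2, where 900 genes were called in all, Rgs4 (adjusted p of 0.0156), Shank1 (0.0225), Arrb1 (0.0316) and Glul (0.0227), the glutamine synthetase gene of astrocytes, passed in edgeR.

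On the supply side, the list of NAAG genes had 4 of 5 members below 0 and a median of -0.26. Over all genes tested 48.5% lay above 0. NAAG is a neuropeptide that activates mGluR3. Rimklb, which encodes a NAAG synthase, had 41.3, 28.9 and 33.6 CPM in shFabp7 and 64.2, 45.8 and 46.2 CPM in shScr. Its groups did not overlap, its log2 fold change was -0.59 and its adjusted p was 0.192 in edgeR and 0.0142 in DESeq2, and it was -0.24 with the regional score as a term. Slc17a5, a transporter gene that loads NAAG into vesicles, had 0.16, and 0.043 without shScr libraries 1 and 3. Glutamate release, uptake and recycling genes were 7 above and 8 below 0, with a median of -0.05 and 0 past the threshold in edgeR. DESeq2 called 1 higher, where 2.49% of all genes were higher. That 1 was Glul, at 0.33. Of the trans-synaptic partners 5 of 6 were tested, 2 above and 3 below 0, and 0 passed in edgeR or DESeq2. Elfn2, a cell adhesion gene that binds group III receptors, had 0.01, a value whose sign turned in 5 alternatives. The receptor gene Gpr158 had 0.17, and 0.082 without shScr libraries 1 and 3.

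**Figure D5:**
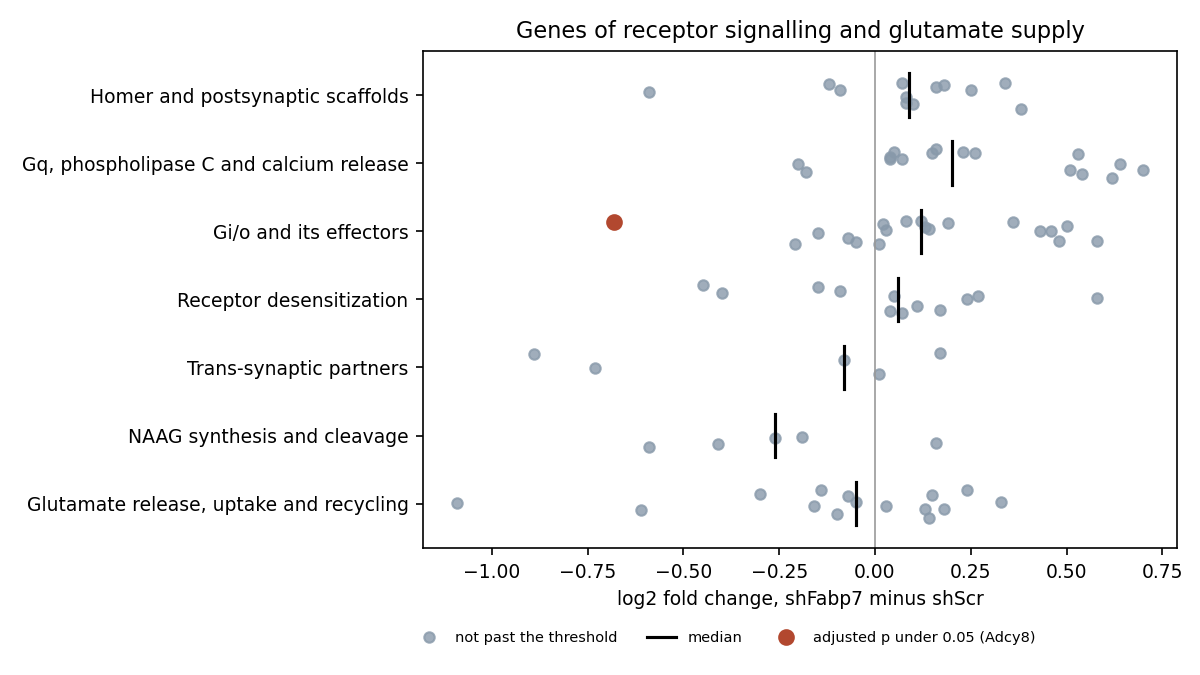
Log2 fold changes, shFabp7 minus shScr, of the tested members of 7 lists of receptor signalling and glutamate supply. Points are genes, black bars are list medians, and Adcy8 at -0.68 is the 1 gene past the threshold.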

How the data were processed

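The authors deposited raw read counts per gene in the layout of featureCounts, with a gene length column, per the file headers. Tools listed in the submitters' processing notes, without roles, are STAR 2.5.2b, Trimmomatic 0.36, DESeq2 and Subread 1.5.2, and the listed build is GRCm39. Of 48970 gene IDs found in GENCODE M21 (GRCm38), 91.4% had identical positions in the files, whose coordinates are therefore printed unchanged and taken as GRCm38. Of the members only Grm4 differed, at its end position. Strand use in counting was not stated, so reads from antisense partners cannot be told apart.

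Groups came from sample titles. Genes were filtered with filterByExpr, libraries scaled by TMM, and shFabp7 compared with shScr by edgeR's quasi-likelihood test (edgeR 4.0.16, R 4.3.3, robust) over all 6 libraries, with Benjamini-Hochberg adjustment. SE is the log2 fold change over the root of F, and levels are CPM, as mean ± SD. Transcripts of the 6 genes had no match of at least 95% identity over 75 bases outside overlapping annotations. Scripts were tested on simulated counts. The members and lists were chosen with earlier results of these data known; named genes were the members, Fabp7, the likeness genes and, per list described, up to 4 genes past the threshold or otherwise the 2 most highly expressed, and genes outside this rule are said to be so. One listed gene was not matched by symbol. Alternatives were DESeq2 1.42.0, limma-voom (limma 3.58.1), other factors, filters, covariates and thresholds, and libraries left out. Other family genes were not analysed here.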

Additional observations from a re-analysis of the deposited data

How the results depend on the processing

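Of the 17 alternatives, Grm4 kept its direction and stayed above an adjusted p of 0.05 in all, and Grm3 kept its direction in all, between 0.12 and 0.40. The threshold of 0.1, counted among the 17, leaves every fold change and adjusted p as it was. The number of genes called over the whole table was 20, and 1617 without a filter, 696 in DESeq2, 109 in limma-voom, 9 with the regional score, 7 with sex as a term, 292 at a threshold of 0.1, 120 without shScr libraries 1 and 3, and 0 to 900 with 1 library left out. The number of receptor genes called was 0, and 1 (Grm3) without a filter, where its log2 fold change was 0.30 with an adjusted p of 0.00546 in edgeR; with 1 library left out it was 0 to 1. Directions turned with the regional score for Grm2 (-0.12), Grm5 (0.03), Grm7 (0.086) and Grm8 (-0.011). They also turned for Slc17a7 (-0.034), itself part of the score, and Elfn2 (-0.011). Without shScr libraries 1 and 3 they turned for Grm5 (0.045), Grm7 (0.063) and Ncdn (0.05). Elfn2 was also -0.007 in limma-voom and -0.018 with sex as a term. With 1 library left out the log2 fold changes ranged from 0.14 to 0.58 for Grm2, 0.24 to 0.40 for Grm3, -0.089 to 0.021 for Grm7, 0.10 to 0.33 for Grm8 and -0.02 to 0.075 for Elfn2. The cause of these changes was not tested. The labels do not say what the replicate numbers mark. Deviations from the group means correlated at 0.081, 0.15 and 0.057 between libraries of the same number, and no other pairs were compared. With the replicate block 629 genes and 1 receptor gene were called, Grm3 at 0.30 with an adjusted p of 0.044 in edgeR. Whether the numbers pair the libraries cannot be told from these values. Levels per kb moved by less than 1 SD with raw library totals in place of TMM. With 3 libraries a group, only Grm3 had an interval that left out a ratio of 1.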
